A study of Mus musculus with 36 samples.

Results

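The enzymes that write, copy and remove 5-methylcytosine were examined in the RNA-seq libraries of BMP4 induced primed to naive transition (BiPNT), a culture system that takes mouse epiblast stem cells (EpiSCs) from primed towards naive pluripotency. The set was fixed by name and holds 10 genes, Dnmt1, Dnmt3a, Dnmt3b, Dnmt3l, Uhrf1, Uhrf2, Tet1, Tet2, Tet3 and Tdg, and all 10 were found in every library, among 50600 listed genes in the Day 3 sorted libraries and 29267 in the others. The 11 libraries form 3 experiments. At Day 3 of BiPNT, cells were sorted on the receptor c-Kit, which gave 2 libraries of c-Kit+ cells and 2 of c-Kit- cells. Day 6 BV+SC+ cells (2 libraries), which are sorted germ cell-like cells positive for both reporters of a Blimp1-mVenus and Stella-ECFP line, were set against EpiSCs (3 libraries). Day 3 cells with and without the DOT1L inhibitor SGC0946 (DOT1Li) gave 1 library each.

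EpiSCs were kept in N2B27 with Activin A, bFGF and XAV939. The first-stage medium of BiPNT is iCD1, which holds vitamin C, bFGF, LiCl, LIF and CHIR99021, with BMP4 and the EZH2 inhibitor EPZ6438. By the study's methods it also holds a DOT1L inhibitor, EPZ5676 or SGC0946, and the labels of the c-Kit libraries do not name the one used, which both arms of that comparison would share. The label protocol names EPZ5676 for the BV+SC+ cells, and N2B27 with 2i and vitamin C for their second stage. The descriptions of the BV+SC+ libraries, however, read 2iJi for replicate 1 and GK15 for replicate 2, and GK15 is also a second-stage medium of the study, so the 2 libraries may differ in medium, and medium and replicate cannot be told apart. The reporter cells were 1 EpiSC line made from embryonic stem cells, whether the EpiSC libraries came from that line is not stated, and the labels do not say whether replicates came from separate cultures, so p-values here measure only the spread between these libraries, which may be technical.

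Cytosine methylation is placed on unmethylated DNA by DNMT3A and DNMT3B, which DNMT3L, a relative without catalytic activity, assists in germ cells and early embryos. After replication it is copied to the new strand by DNMT1, which UHRF1 recruits to hemimethylated sites. TET1, TET2 and TET3 oxidise 5-methylcytosine, with vitamin C as a cofactor that sustains their activity, and TDG excises the oxidised bases so that repair can restore cytosine. Loss of methylation across the genome is a known feature of primordial germ cells and of naive pluripotency in 2i medium, whereas the primed epiblast is highly methylated. No methylation was measured in these libraries, and all values below are RNA.

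CpG dinucleotides are the substrate of these enzymes, and 4 start sites that differ in CpG content are shown, those of Dnmt3b and Dnmt3l, whose RNA moved in opposite directions, of Tet1, which had the largest fold between the sorted cells, and of Uhrf1. Each runs 5′ to 3′ from 250 bases before to 50 bases after a RefSeq start (GRCm38.p6), with CpG dinucleotides in capitals. RefSeq windows were found for all 10 genes, 17 in all. In the GENCODE annotation of GRCm38 all 10 are protein-coding, on the plus strand for Dnmt3a (chr12:3806007-3914443), Dnmt3b (chr2:153649450-153687730), Dnmt3l (chr10:78041947-78063622), Uhrf1 (chr17:56303321-56323486), Uhrf2 (chr19:30030513-30093722) and Tdg (chr10:82629828-82650799), and on the minus strand for Dnmt1 (chr9:20907209-20959888), Tet1 (chr10:62804570-62908996), Tet2 (chr3:133463679-133545139) and Tet3 (chr6:83362373-83459084).
Dnmt3b, chr2:153649199-153649498, plus strand: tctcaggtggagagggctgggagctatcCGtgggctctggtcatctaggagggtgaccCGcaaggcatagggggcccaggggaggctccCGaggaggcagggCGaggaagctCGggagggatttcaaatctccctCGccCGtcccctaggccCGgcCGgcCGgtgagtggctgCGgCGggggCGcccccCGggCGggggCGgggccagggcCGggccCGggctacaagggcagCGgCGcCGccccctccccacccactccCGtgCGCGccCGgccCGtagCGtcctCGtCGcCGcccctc
Dnmt3l, chr10:78049592-78049891, plus strand: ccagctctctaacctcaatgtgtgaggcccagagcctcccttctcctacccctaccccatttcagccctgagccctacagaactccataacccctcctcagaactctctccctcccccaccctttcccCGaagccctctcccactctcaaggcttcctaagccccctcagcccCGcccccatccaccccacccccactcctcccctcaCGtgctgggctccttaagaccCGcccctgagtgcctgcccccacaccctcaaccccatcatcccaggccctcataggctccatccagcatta
Tet1, chr10:62887275-62887574, minus strand: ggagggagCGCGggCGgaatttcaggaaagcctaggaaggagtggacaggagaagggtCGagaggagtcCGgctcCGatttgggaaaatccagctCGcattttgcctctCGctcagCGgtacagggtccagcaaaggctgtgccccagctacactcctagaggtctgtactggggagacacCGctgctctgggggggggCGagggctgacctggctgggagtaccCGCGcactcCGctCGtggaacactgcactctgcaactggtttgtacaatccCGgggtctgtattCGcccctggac
Uhrf1, chr17:56304063-56304362, plus strand: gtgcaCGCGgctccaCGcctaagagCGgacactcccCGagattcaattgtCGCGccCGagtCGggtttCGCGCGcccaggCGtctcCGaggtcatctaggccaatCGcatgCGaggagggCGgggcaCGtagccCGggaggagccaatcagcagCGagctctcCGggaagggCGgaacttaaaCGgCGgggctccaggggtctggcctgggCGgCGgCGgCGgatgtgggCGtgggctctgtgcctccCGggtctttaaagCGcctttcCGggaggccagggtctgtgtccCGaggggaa
The Dnmt3b window held 30 CpG and the Uhrf1 window 33, counts that 11.7% and 8.57% of all 32817 windows reached. The Dnmt3l window held 4 CpG, which 68.6% of windows reached, and the Tet1 window held 17, which 31.4% reached. The Tet1 window lies at the start of the short transcript Tet1-207 and not at those of Tet1-201 or Tet1-206. The other Dnmt3l windows, from starts upstream and downstream of the one shown, held 6 and 3. Another Uhrf1 window, upstream at chr17:56303087-56303386, held 12, which 39.6% of windows reached. Over all 32817 windows the median was 7, and the Tet2 window held the most of the 17, 57 CpG. A run of the E2F letters TTTCGCGC, TTTCCCGC, TTTGGCGC or TTTGCCGC on either strand was in 2 of the 17 windows, the Uhrf1 window above (TTTCGCGC) and a Dnmt1 window at chr9:20952574-20952873 on the minus strand (TTTCGCGC and TTTGGCGC), against 2.26% of all windows. These letters are a description of the windows and not evidence of binding.

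Depth, as the sum of expected counts (the reads per gene that RSEM estimates), was 1.73e+06 to 1.84e+06 in the sorted libraries, 2.44e+06 to 3.07e+06 in EpiSCs, 1.48e+07 and 1.81e+07 in BV+SC+ cells, and 4.78e+06 and 4.58e+06 with and without DOT1Li. The labels held against their markers. In TPM, the length-corrected expression level that RSEM gives relative to the whole library, Kit, the receptor used for the sort, stood at 99.6 and 96.0 in c-Kit+ libraries and at 4.81 and 3.24 in c-Kit- libraries. Dppa3, the gene behind the Stella reporter, stood at 1162 and 1202 TPM in BV+SC+ cells and was listed at 0 in each EpiSC library, whereas Fgf5, a primed epiblast marker, stood at 0.45 and 4.09 TPM in BV+SC+ cells and at 89.2 to 109 TPM in EpiSCs. Of the 9 primed epiblast markers tested 6 were lower and 1 higher in BV+SC+ cells (edgeR adjusted p under 0.05), beside 26.5% and 29.6% of all genes tested. Their TPM summed to 190 to 349 against 702 to 851. Of the 6 lower, Fgf5, Pou3f1 and Sox3 passed the edgeR filter on low counts only through EpiSCs, so a call was likely. The higher marker was Lefty2, at 267 and 53.6 TPM against 4.55 to 10.0 TPM. Naive pluripotency markers summed to 3483 to 4249 TPM in BV+SC+ cells and to 26.7 to 118 TPM in EpiSCs. Of 7 trophoblast markers tested 4 were higher in BV+SC+ cells and 0 lower, beside 29.6% and 26.5% of all genes tested. Gata2, among the 4, passed the filter on low counts only through the BV+SC+ libraries, so it had to differ. The sums of the trophoblast markers overlapped, at 168 to 484 against 199 to 246 TPM. Trophoblast markers summed to 16464 to 17695 TPM in c-Kit- libraries and to 3526 to 4124 TPM in c-Kit+ libraries. In c-Kit+ cells 10 of the 13 tested were lower, beside 21.3% of all genes tested. Krt7, among the 10, passed the filter on low counts only through the c-Kit- libraries, so it had to differ. Eomes was the 1 higher, at 18.5 TPM on average in c-Kit+ and 1.86 TPM in c-Kit- cells. It passed that filter only through the c-Kit+ libraries. Fibroblast markers, of which 3 of 3 tested were lower in c-Kit+ cells, summed to 44.1 to 55.5 TPM there and to 139 to 165 TPM in c-Kit- libraries. Core pluripotency markers were higher for 6 of 6 (20.2% of all genes tested), with sums of 2264 to 2332 TPM against 271 to 288 TPM. Of these 6, Sox2 and Nanog passed the filter on low counts only through the c-Kit+ libraries, so they had to differ. In bulk libraries such as these, fewer cells of a type and less RNA per cell cannot be told apart. The BV+SC+ replicates also stood apart from each other, with Otx2, another primed epiblast gene, at 4.29 and 47.5 TPM, and results that rest on them are given for each library.

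**Figure D1:**
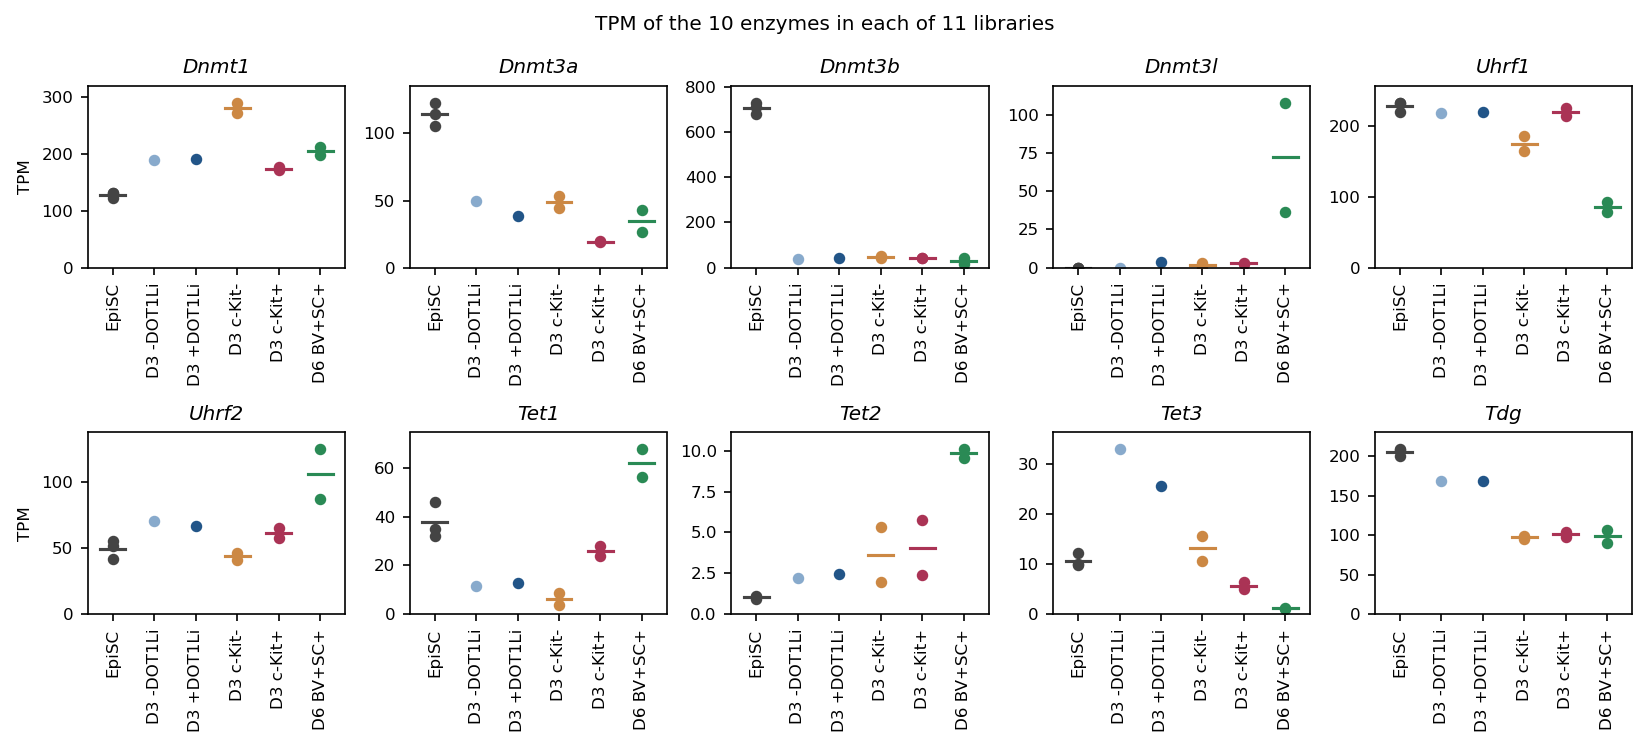
TPM of each of the 10 genes, 1 panel per gene with its own linear axis from 0, in the 6 groups along the x axis. Points are libraries and horizontal bars are means of groups with more than 1 library, and no error is drawn because each library is shown. Dnmt3b stood at 679 to 731 TPM in EpiSCs and at 49.8 TPM or below elsewhere, and Dnmt3l reached 36.6 and 108 TPM only in BV+SC+ libraries.

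Between Day 6 BV+SC+ cells and EpiSCs the 9 genes tested besides Dnmt3l each differed, 4 higher (Dnmt1, Uhrf2, Tet1 and Tet2) and 5 lower in BV+SC+ cells. The largest fall was that of Dnmt3b, 22.3-fold. The de novo partner Dnmt3l went from 0 counts to 36.6 and 108 TPM, and since it passed the filter on low counts only through the BV+SC+ libraries, it had to differ and is described apart. The members moved in opposite directions inside each family, with Tet1 and Tet2 higher and Tet3 lower, Uhrf2 higher and Uhrf1 lower, and Dnmt3l present in BV+SC+ cells while Dnmt3a and Dnmt3b were lower. An edgeR adjusted p under 0.05 was reached by 56.0% of the 11792 genes tested in this comparison, 29.6% higher and 26.5% lower, so a call is common here. Normalized CPM of the groups did not overlap for the 9 genes, nor for 73.0% of all genes. The stricter rule of an unadjusted p under 0.05 with a fold over 2 was met by 8 of the 9 genes, with Dnmt1 the exception, and by 35.0% of all genes tested. The median log2 fold change was -1.08 over the 9 genes, which is the value of Tdg, and 0.05 over all genes tested. With 4 genes higher and 5 lower it marks no common shift, and with Dnmt3l included it was -0.16.

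Dnmt3b, the main de novo methyltransferase of the primed epiblast, stood at 679, 731 and 710 TPM in EpiSCs and at 17.6 and 41.9 TPM in BV+SC+ cells. No BV+SC+ library came near an EpiSC library, although the BV+SC+ libraries differed more than 2-fold from each other. The log2 fold change was -4.48 (SE 0.35, edgeR adjusted p = 4.65e-05), and it was -3.99 without BV+SC+ replicate 1 and -5.23 without BV+SC+ replicate 2. Dnmt3a, the second de novo methyltransferase, stood at 106, 115 and 123 TPM in EpiSCs and at 26.7 and 42.6 TPM in BV+SC+ cells, again without overlap. Its log2 fold change was -1.60 (SE 0.16, edgeR adjusted p = 0.000150). Summed, the TPM of Dnmt3a and Dnmt3b were 821 ± 32.6 (SD, n = 3) in EpiSCs and 64.4 ± 28.5 (SD, n = 2) in BV+SC+ cells.

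Dnmt3l had 0 expected counts in each of the 3 EpiSC libraries, and 466 and 1643 in the BV+SC+ libraries (36.6 and 108 TPM). A count of 0 allows up to 3 counts in a library, and against 3 counts in each EpiSC library the gene was at least 57.7-fold higher in BV+SC+ cells, a bound that was 28.6 from replicate 1 alone and 86.7 from replicate 2 alone. Its exons overlap those of Aire on the opposite strand, and Aire was itself counted 18 and 254 times in the BV+SC+ libraries, so part of either count may belong to the other gene if the counting ignored strand.

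Among the maintenance genes the directions split. Dnmt1, the maintenance methyltransferase, stood at 199 and 212 TPM in BV+SC+ cells and at 123, 131 and 131 TPM in EpiSCs. The groups did not overlap, and the log2 fold change was 0.76 (SE 0.09, edgeR adjusted p = 0.000340). Uhrf1, its recruiting factor, went the other way, from 219, 233 and 232 TPM in EpiSCs to 93.1 and 78.7 TPM in BV+SC+ cells, 2.47-fold lower (log2 fold change -1.303, SE 0.11, edgeR adjusted p = 5.76e-05). Uhrf2, the paralogue of Uhrf1, stood at 125 and 86.7 TPM in BV+SC+ cells and at 51.1, 41.7 and 55.5 TPM in EpiSCs (log2 fold change 1.36, SE 0.18, edgeR adjusted p = 0.000530). Within a library the ratio of Uhrf1 to Dnmt1 TPM was 1.78 ± 0.00603 (SD, n = 3) in EpiSCs and 0.419 ± 0.0689 (SD, n = 2) in BV+SC+ cells, so Uhrf1 exceeded Dnmt1 in each EpiSC library and was the lower of the pair in each BV+SC+ library. In counts, which are not corrected for length, the ratios were 1.08 and 0.258. With 2 against 3 libraries an exact permutation test cannot go below p = 0.2 (two-sided), and none was run on ratios or shares.

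The TET genes moved in both directions. Tet1, the dioxygenase of pluripotent cells, stood at 45.9, 32.2 and 35.2 TPM in EpiSCs and at 56.5 and 67.9 TPM in BV+SC+ cells (log2 fold change 1.15, SE 0.11, edgeR adjusted p = 9.08e-05). Tet2 rose from about 1 TPM (1.09, 1.07 and 0.90, on 17, 16 and 11 counts) to 10.1 and 9.57 TPM, with a log2 fold change of 3.34 (SE 0.21, edgeR adjusted p = 1.62e-05). Tet3, best known from the oocyte and zygote, fell from 10.0, 12.2 and 9.78 TPM to 1.18 and 1.09 TPM, a log2 fold change of -3.61 (SE 0.40, edgeR adjusted p = 0.000206). Without BV+SC+ replicate 1 that value was -4.47 and without replicate 2 it was -3.05, with 111 and 48 counts behind the 2 TPM values. Tdg, the glycosylase that acts after the TET enzymes, stood at 208, 200 and 209 TPM in EpiSCs and at 90.0 and 107 TPM in BV+SC+ cells (log2 fold change -1.08, SE 0.12, edgeR adjusted p = 0.000201). The short transcripts Tdg-210 (971 bases) and Tdg-211 (736 bases) match the processed pseudogenes Tdg-ps and Gm5597 at 100% and 99.9% of their length. Both pseudogenes are listed only with the sorted libraries. Reads from them could therefore count as Tdg here, and the Tdg values are uncertain.

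**Figure D2:**
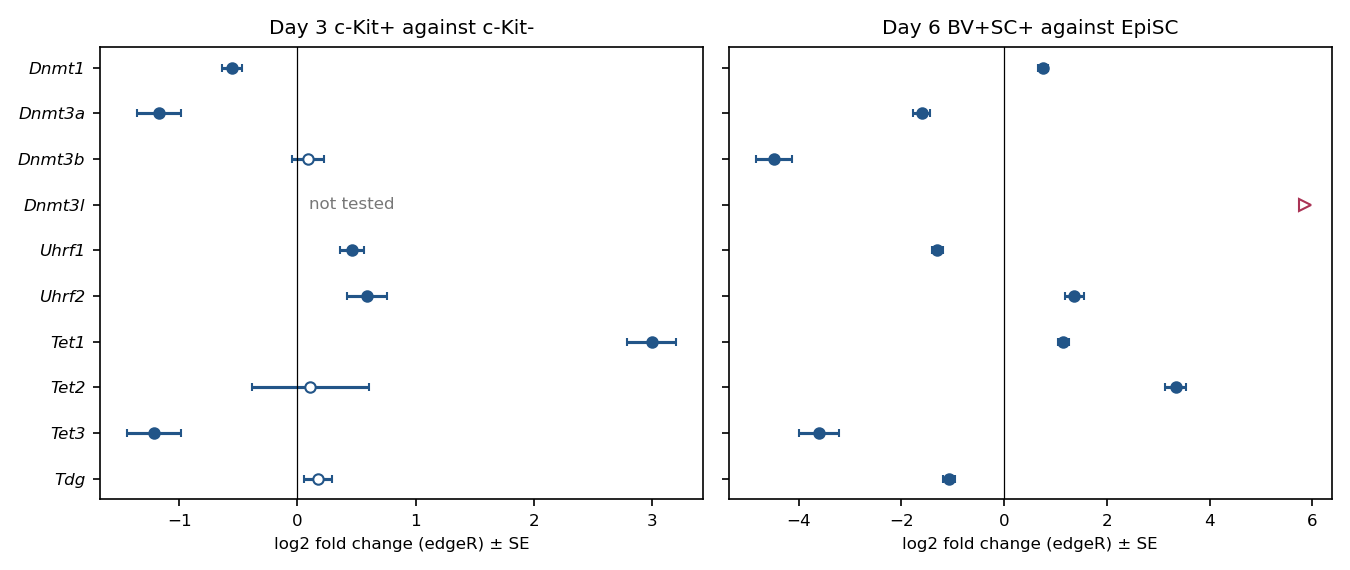
Log2 fold change from edgeR with its standard error for the 10 genes, Day 3 c-Kit+ against c-Kit- cells on the left and Day 6 BV+SC+ cells against EpiSCs on the right. Filled points have an adjusted p under 0.05, open circles do not, and the open triangle marks the lower bound for Dnmt3l (at least 57.7-fold, drawn on the log2 scale). Tet1 lies furthest to the right among the sorted cells at 3.00, and Dnmt3b furthest to the left in the right panel at -4.48.

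Among the Day 3 cells sorted on c-Kit the clearest difference was in Tet1, 7.98-fold higher in c-Kit+ cells. Of the 10 genes, 9 passed the filter on low counts, and in c-Kit+ cells 3 were higher (Tet1, Uhrf1 and Uhrf2), 3 were lower (Dnmt3a, Tet3 and Dnmt1) and 3 did not pass the test (Dnmt3b, Tet2 and Tdg). An edgeR adjusted p under 0.05 was reached by 41.5% of the 11018 genes tested, 20.2% higher and 21.3% lower, and a fold over 2 with an unadjusted p under 0.05 by 24.4%, which Tet1, Dnmt3a and Tet3 met. Normalized CPM overlapped for Dnmt3b and Tet2 and did not for the other 7, nor for 73.1% of all genes. Over all genes 2228 were called higher and 2346 lower, while limma on log2(TPM + 1) gave 1298 and 2319 and moved the median of all genes from 0.03 to -0.11. Uhrf1 (limma adjusted p = 0.0676), Uhrf2 (0.0771) and Tet3 (0.0537) were not called on that scale. Trophoblast, fibroblast and core pluripotency markers moved with this comparison, as given above. Primed epiblast markers summed to 640 to 642 TPM in c-Kit+ and to 184 to 201 TPM in c-Kit- libraries. Germ cell specification markers, which include Kit, summed to 2536 to 2664 TPM and to 497 to 498 TPM. In each of these last lists 1 gene was called lower in c-Kit+ cells. The part of all these markers in these results was not tested.

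Tet1 had the largest fold of the 9 genes tested. It had 232 and 290 counts in c-Kit+ libraries and 28 and 40 in c-Kit- libraries, or 28.1 and 24.1 TPM against 3.92 and 8.50 TPM. The populations did not overlap, and the log2 fold change on counts was 3.00 (SE 0.20, edgeR adjusted p = 7.50e-06), or 7.98-fold. On the log2(TPM + 1) scale the difference was 1.98 (SE 0.39, limma adjusted p = 0.00772), or 3.95-fold, and the transcript length by which RSEM divides the counts differed between the populations, as given with the lengths. Tet3 ran opposite, at 6.43 and 4.91 TPM in c-Kit+ libraries and 15.6 and 10.6 TPM in c-Kit- libraries (log2 fold change -1.21, SE 0.23, edgeR adjusted p = 0.00260). Tet2 stood at 5.74 and 2.37 TPM against 1.94 and 5.31 TPM on 9 to 21 counts, and the populations overlapped. Its log2 fold change of 0.11 had an SE of 0.49, the widest of the 9 genes tested.

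Of the methyltransferases, Dnmt1 stood at 172 and 177 TPM in c-Kit+ libraries and at 291 and 271 TPM in c-Kit- libraries, a log2 fold change of -0.55 (SE 0.08, edgeR adjusted p = 0.000639). Dnmt3a stood at 18.7 and 20.1 TPM against 44.5 and 53.6 TPM (log2 fold change -1.17, SE 0.19, edgeR adjusted p = 0.000941). Both were lower in each c-Kit+ library than in either c-Kit- library. Dnmt3b stood at 43.1 and 44.1 TPM against 43.9 and 49.8 TPM, with a log2 fold change of 0.09 (SE 0.14, edgeR adjusted p = 0.623), and on log2(TPM + 1) the sign turned to -0.10 (limma adjusted p = 0.706). Dnmt3l was too low to test, with 5 and 4 counts in c-Kit+ libraries and 2 and 0 in c-Kit- libraries.

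The Uhrf genes were both higher in c-Kit+ cells. Uhrf1 stood at 225 and 215 TPM against 164 and 186 TPM, a log2 fold change of 0.46 (SE 0.10, edgeR adjusted p = 0.00579). Uhrf2 stood at 57.7 and 64.7 TPM against 41.2 and 46.4 TPM, a log2 fold change of 0.59 (SE 0.17, edgeR adjusted p = 0.0223). The Uhrf2 call was lost without c-Kit+ replicate 1 (adjusted p = 0.0524), without c-Kit+ replicate 2 (0.143) and without c-Kit- replicate 1 (0.0796), all by edgeR, and with an offset for GC content (edgeR, 0.143) or with DESeq2 (0.163). Within a library the Uhrf1 to Dnmt1 ratio of TPM was 1.26 ± 0.0675 (SD, n = 2) in c-Kit+ cells but stood at 0.625 ± 0.0853 (SD, n = 2) in the c-Kit- libraries. In counts the ratios were 0.805 and 0.399, so which of the pair was higher in c-Kit+ cells turned with the unit. With the GC offset the log2 fold change of Uhrf1 grew to 0.69 and that of Dnmt1 shrank to -0.36, and both were still called. Up to 54.4% of the Uhrf1-205 transcript matches the pseudogene Gm5648, which was listed at 0 counts in each sorted library. Tdg stood at 104 and 97.6 TPM against 99.3 and 95.3 TPM, with a log2 fold change of 0.17 (SE 0.12, edgeR adjusted p = 0.269), and its pseudogene copy Gm9855 took 56.5 to 82.0 counts a library, against 251 to 286 for Tdg.

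In the experiment on DOT1Li each condition was 1 library, so there is no replicate check and no p-value, and intervals cover counting error only. A change past 2-fold was seen for 7.40% of the 12531 genes that had 10 or more counts in at least 1 of the libraries, 5.70% higher and 1.70% lower with DOT1Li. Of the 10 enzymes 1 was past 2-fold, Dnmt3l, which had 15 counts with DOT1Li and 0 without. It passed the filter of 10 counts only through the DOT1Li library, so it had to be past 2-fold. Against 3 counts it was at least 4.79-fold higher. That count of 15 is small beside the 466 and 1643 of the BV+SC+ libraries, and Dnmt3l stood at 3.85 TPM.

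The other 9 enzymes lay within 2-fold. Tet1 had 352 counts with DOT1Li and 216 without, or 73.7 and 47.2 CPM (counts scaled to the library total), a ratio of 1.56 (95% interval 1.31 to 1.86), while its TPM were 12.6 and 11.4. Tet3 had 676 and 831 counts, a CPM ratio of 0.780 (0.703 to 0.864). Uhrf1 had a CPM ratio of 1.07 (1.003 to 1.15). The intervals of the remaining 6 included 1, with ratios of 1.03 for Dnmt1, 1.09 for Dnmt3a, 1.06 for Dnmt3b, 0.953 for Uhrf2, 1.13 for Tet2 and 1.00 for Tdg. Dnmt3a changed direction with the unit, from 460 and 404 counts to 38.6 and 49.8 TPM, since its weighted transcript length was 4693 bases with DOT1Li and 3447 without. For context, Pou5f1, the core pluripotency factor Oct4, had 1678 and 191 counts in this pair, a CPM ratio of 8.42 (7.25 to 9.83).

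**Figure D3:**
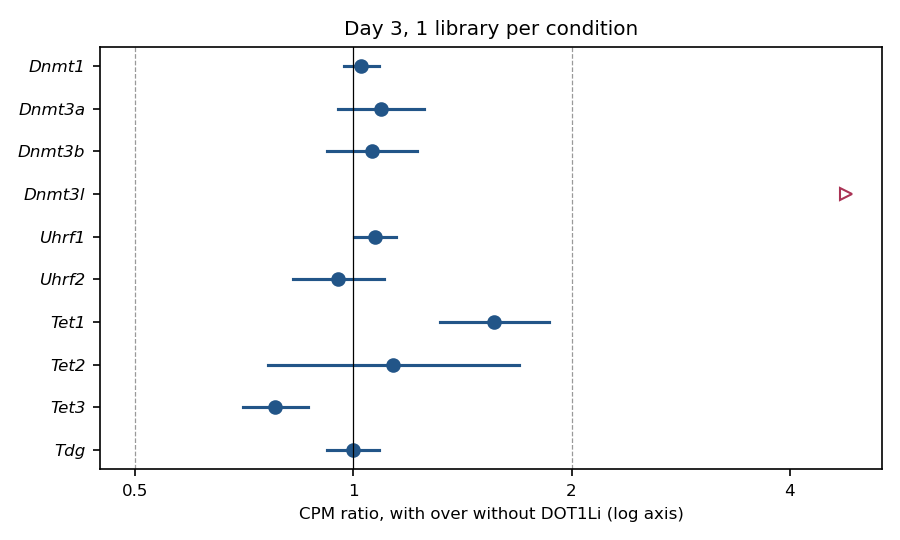
Ratio of CPM with over without DOT1Li at Day 3 for the 10 genes on a log axis, with exact 95% intervals for counting error only. Dashed lines mark 2-fold and the open triangle marks the lower bound for Dnmt3l (4.79). Tet1 at 1.56 and Tet3 at 0.780 are the points furthest from 1 among the other 9.

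Across the 6 groups the levels fell into an order, given here as a description because the files of the c-Kit libraries list other genes and the library kits differ between experiments. EpiSCs held the highest TPM of Dnmt3a, Dnmt3b and Tdg, with Uhrf1 also highest by mean but overlapping the inhibitor-treated and c-Kit+ libraries. The 4 sorted libraries and the 2 DOT1Li libraries held Dnmt3b at 39.1 to 49.8 TPM, below EpiSCs by an order of magnitude and beside the 41.9 TPM of BV+SC+ replicate 2. BV+SC+ cells held the highest TPM of Dnmt3l, Uhrf2, Tet1 and Tet2 and the lowest of Uhrf1 and Tet3. c-Kit- cells held the highest Dnmt1 and the lowest Tet1. Tet3 was highest in the unsorted Day 3 libraries, at 32.9 TPM without and 25.5 TPM with DOT1Li. By mean TPM Tet1 fell in the order BV+SC+, EpiSC, c-Kit+, with DOT1Li, without DOT1Li and c-Kit-. The groups with and without DOT1Li are 1 library each, at 12.6 and 11.4 TPM, so they could not overlap each other. For Tdg the c-Kit+, BV+SC+ and c-Kit- groups overlapped.

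Shares within a family do not depend on scaling between libraries. Dnmt3b made up 86.1% ± 0.725 (SD, n = 3) of the summed TPM of Dnmt3a, Dnmt3b and Dnmt3l in EpiSCs and 21.7% ± 0.00753 (SD, n = 2) in BV+SC+ cells, where Dnmt3l took 50.7% ± 7.70 (SD, n = 2). The c-Kit+ libraries gave Dnmt3b 66.2% ± 0.0458 (SD, n = 2) and the c-Kit- libraries 48.1% ± 0.132 (SD, n = 2), with Dnmt3a at 29.5% ± 1.01 and 50.3% ± 2.18 (SD, n = 2 each). Tet1 held 76.0% ± 4.85 (SD, n = 3) of the TET sum in EpiSCs, 84.9% ± 2.19 (SD, n = 2) in BV+SC+ cells and, among the sorted libraries, 73.3% ± 4.93 (SD, n = 2) in the c-Kit+ pair. Tet1 held 26.5% ± 11.7 (SD, n = 2) in the c-Kit- libraries, and 31.1% with and 24.6% without DOT1Li in the unsorted Day 3 libraries. Tet3 was the main TET gene by TPM in c-Kit- cells (58.1% ± 20.6, SD, n = 2) and in the Day 3 libraries without (70.7%) and with (62.9%) DOT1Li. Uhrf1 held 82.2% ± 2.26 (SD, n = 3) of the Uhrf sum in EpiSCs and 45.2% ± 3.43 (SD, n = 2) in BV+SC+ cells, but 78.2% ± 1.95 and 80.0% ± 0.0714 (SD, n = 2 each) in c-Kit+ and c-Kit- cells, a difference smaller than the SD of the c-Kit+ pair. An exact permutation test of 2 against 2 libraries cannot go below p = 0.333 (two-sided).

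**Figure D4:**
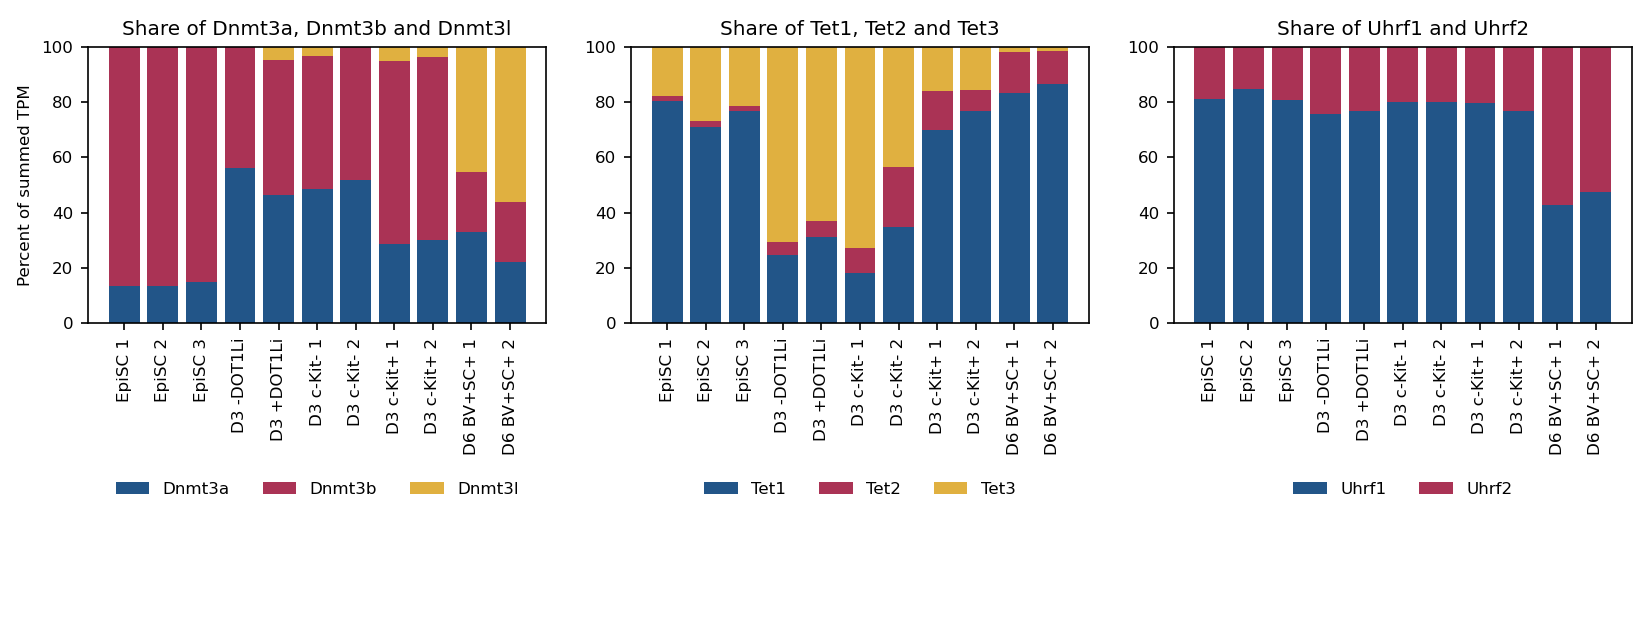
Percent of the summed TPM held by each gene of the Dnmt3, Tet and Uhrf families, 1 stacked bar per library from 0 to 100. Dnmt3b fills most of each EpiSC bar (85.2% to 86.5%), Dnmt3l appears as a large block only in the BV+SC+ bars (45.3% and 56.2%), and Uhrf1 falls below 50 percent only in the BV+SC+ bars.

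The files also give the transcript length of each gene weighted by the isoform shares that RSEM estimated, from the same reads as the counts. Tet1 was the only one of the 8 enzymes measurable in each library whose groups did not overlap and differed by more than 10%, in both comparisons, beside 15.6% of 7252 genes of like level in the sorted cells and 17.9% of 6828 in BV+SC+ cells and EpiSCs. It averaged 8501 and 11511 bases in c-Kit+ libraries and 7440 and 4995 bases in c-Kit- libraries, on 28 and 40 counts in the latter. In BV+SC+ libraries it averaged 12642 and 11872 bases, and in EpiSCs 7697, 11542 and 10548 bases. The annotated Tet1 transcripts in both gene lists run from 581 to 14369 bases, and Tet1-201 (13986 bases) and Tet1-206 (14369 bases) start at different sites, so a lower average means a larger estimated share of short transcripts. The Tet3 average was 4336 bases in BV+SC+ replicate 2 and 10741 in replicate 1, at 48 and 111 counts. The Dnmt3l average was 1668 and 1658 bases in BV+SC+ libraries and 1676 bases with DOT1Li, at or between the lengths of Dnmt3l-201 (1676 bases, from chr10:78049842) and Dnmt3l-208 (1657 bases, from chr10:78049959), which begin at the window printed above or just after it. A mixture of other transcripts can give the same average.

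**Figure D5:**
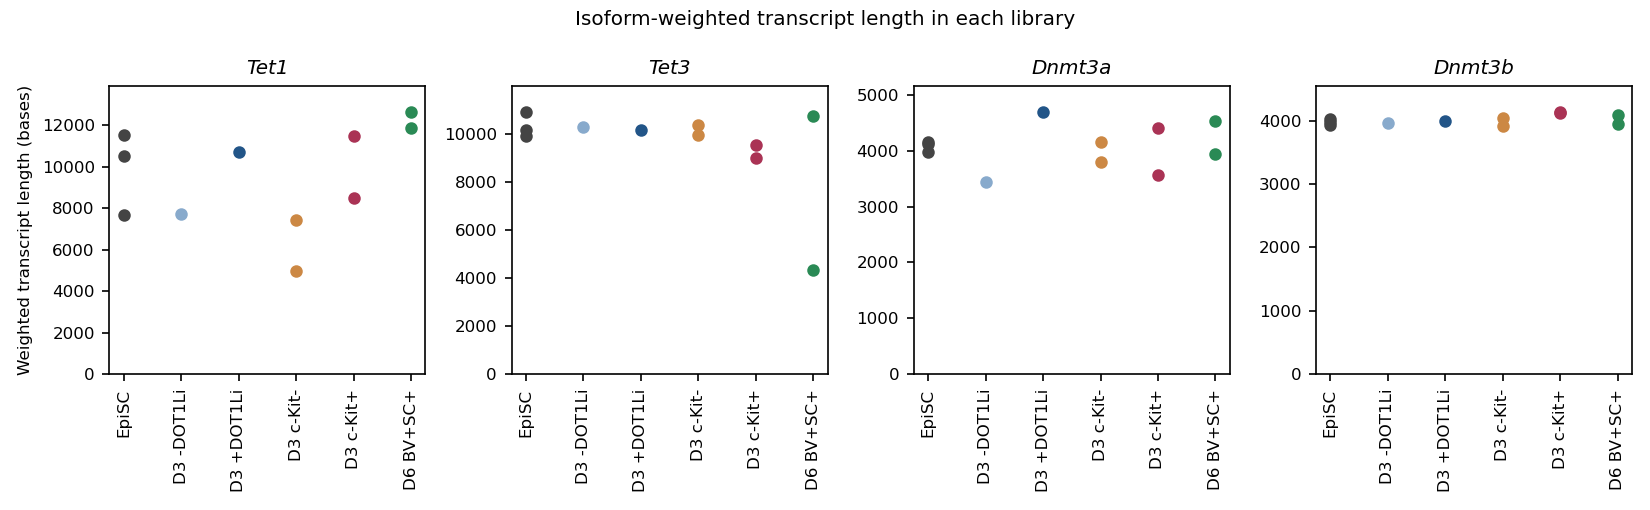
Isoform-weighted transcript length in bases, as estimated by RSEM, for Tet1, Tet3, Dnmt3a and Dnmt3b, 1 point per library in the 6 groups. Tet1 is shortest in the c-Kit- libraries (4995 and 7440 bases) and longest in the BV+SC+ libraries (11872 and 12642 bases), while Dnmt3b stays between 3913 and 4133 bases.

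Genes that act with these enzymes were counted from lists by the edgeR adjusted p under 0.05, which 20.2% of all genes tested reached as higher and 21.3% as lower in c-Kit+ cells, and 29.6% and 26.5% in BV+SC+ cells. Among 14 regulators and partners of DNMT1, UHRF1 and the DNMT3 enzymes, 7 of 13 tested were higher and 3 lower in c-Kit+ cells (median log2 fold change 0.65, against 0.03 over all genes). Usp7, the deubiquitinase that stabilises DNMT1 and UHRF1, stood at 174 TPM in c-Kit+ and 91.5 TPM in c-Kit- cells (log2 fold change 1.13, SE 0.10, edgeR adjusted p = 3.48e-05), and Cdca7, a partner of the remodeller HELLS, rose likewise, by 1.27 (SE 0.15). Kdm1b, a histone demethylase required for imprint setting in oocytes, fell by 1.45 on the log2 scale (SE 0.22). In BV+SC+ cells 6 of 14 were higher and 3 lower than in EpiSCs, with medians of 0.30 and 0.05. The 6 include Dppa3, the gene behind a sort reporter, and Prdm14. Both passed the filter on low counts only through the BV+SC+ libraries, so they had to differ. Dppa3, which keeps UHRF1 from chromatin, stood at 1182 TPM on average in BV+SC+ cells and was listed at 0 in EpiSCs, and Prdm14, which represses Dnmt3b, stood at 40.6 TPM on average against 0.0833 TPM. In c-Kit+ and c-Kit- cells Dppa3 stood at 71.5 and 1.70 TPM on average, and there it passed the filter only through the c-Kit+ libraries. With DOT1Li Dppa3 had 21 counts against 3 without, a ratio of 6.71 (95% interval 2.00 to 35.1). It was the 1 of 13 measured partners past 2-fold, beside 7.40% of all genes measured. Dppa3 passed the count filter of that pair only through the DOT1Li library, so with 3 counts without DOT1Li it had to be past 2-fold.

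Among 10 cofactors and regulators of the TET enzymes, 2 of 8 tested were higher and 3 lower in c-Kit+ cells, and 4 of 9 were higher and 1 lower in BV+SC+ cells. Over all genes tested the shares were 20.2% higher and 21.3% lower, and 29.6% and 26.5%. The 1 lower in BV+SC+ cells, Cxxc4, passed the filter on low counts only through EpiSCs, at 2.21 against 0.33 TPM on average. Ogt, the O-GlcNAc transferase that binds TET proteins, was higher in both c-Kit+ cells (log2 fold change 1.01, SE 0.14) and BV+SC+ cells (0.75, SE 0.10). Idh2, a mitochondrial source of 2-oxoglutarate, the TET cosubstrate, fell by 0.93 (SE 0.13) in c-Kit+ cells and rose by 0.86 (SE 0.12) in BV+SC+ cells. Slc23a2, a vitamin C transporter, fell by 1.20 (SE 0.15) in c-Kit+ cells. None of the 8 measured with DOT1Li was past 2-fold, beside 7.40% of all genes measured.

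Of 15 genes of base excision repair and the deaminases, 5 of 11 tested were higher and 2 lower in c-Kit+ cells, and 8 of 14 were higher in BV+SC+ cells (edgeR, adjusted p under 0.05), where all genes tested gave 20.2% and 21.3%, and 29.6% higher. Neil2, 1 of these 8, passed the filter on low counts only through the BV+SC+ libraries, at 5.70 against 0.523 TPM on average. Gadd45a, a stress-response gene implicated in demethylation, was 2.52 log2 units higher in c-Kit+ cells (SE 0.23) and 1.73 higher in BV+SC+ cells (SE 0.30), while its relatives Gadd45g and Gadd45b fell by 2.09 (SE 0.23) and 1.58 (SE 0.25) in c-Kit+ cells. Ung, which removes uracil from DNA, and the deaminase gene Apobec3 exceeded their EpiSC levels in BV+SC+ cells by 2.46-fold and 10.9-fold. With DOT1Li the CPM ratios were 2.05 for Gadd45a, 2.83 for Gadd45b and 0.421 for Gadd45g.

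The methionine cycle supplies the methyl donor S-adenosylmethionine. In c-Kit+ cells 4 of 8 genes tested were higher (20.2% of all genes), led by Ahcy, the hydrolase that clears the inhibitory product of methylation (log2 fold change 0.93, SE 0.11). In BV+SC+ cells 2 of 8 were higher and 3 lower (29.6% and 26.5% of all genes), and Ahcy fell by 1.09 (SE 0.09), from 681 to 309 TPM on average. Of 8 methyl-CpG readers, 7 were tested in each comparison. Mbd2, which recruits the NuRD complex to methylated DNA, was the single reader called in c-Kit+ cells, where it fell by 1.31 (SE 0.24) and 21.3% of all genes were lower, and in BV+SC+ cells it was among 3 that were higher, at 1.14 (SE 0.25), with Zbtb33 the 1 lower, beside 29.6% and 26.5% of all genes. Replication genes, with which Dnmt1 and Uhrf1 are cell cycle regulated, were higher for 12 of 20 and lower for 1 in c-Kit+ cells, and higher for 4 and lower for 7 in BV+SC+ cells, with list medians of 0.51 and -0.27 (edgeR, adjusted p under 0.05). All genes tested gave 20.2% and 21.3% in the first comparison and 29.6% and 26.5% in the second, with medians of 0.03 and 0.05. None of the 20 was past 2-fold with DOT1Li, beside 7.40% of all genes measured.

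Over the 7 libraries that share a gene list, the genes most like 3 of the enzymes were named by Pearson's r of log2(TPM + 1), as a description across libraries that fall into distinct groups. They were Eno1b (0.999), Atcay (0.998) and Myrf (0.996) for Dnmt3b, Sox3 (0.998), Cpe (0.998) and Tenm3 (0.997) for Uhrf1, and Platr14 (0.995), Mettl5 (0.994) and Pfas (0.990) for Tet1, among 10597 genes. Eno1b is a near-identical copy of Eno1, so its counts are uncertain.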

How the data were processed

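Only the 11 bulk RNA-seq libraries entered, and other assays of the series were not used here. By the study's methods, reads were aligned to GENCODE transcripts with Bowtie2 and quantified with RSEM (1.3.1 in the submitters' processing notes, which name no RSEM for the c-Kit libraries). The authors deposited expected counts per gene, not normalized between libraries, with the TPM, FPKM and isoform-weighted lengths that RSEM computes. The FPKM were not used. The methods name GENCODE release M13, and since the 2 gene lists (50600 and 29267 genes) differ, which files it applies to is not given in the sources used here. For some but not all of the libraries the labels give a strand-marking total RNA kit with ribosomal RNA removed, while the study's methods name an mRNA-seq kit. The strand setting of the counting is not given in the sources used here.

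Expected counts were rounded and tested within each experiment by the quasi-likelihood test of edgeR 4.0.16 under R 4.3.3, after filterByExpr and TMM scaling, with Benjamini-Hochberg adjustment over all genes tested. Differences in the inhibitor pair are CPM ratios with exact (Clopper-Pearson) 95% intervals. DESeq2 1.42.0 and limma 3.58.1 (pseudocount 1) were alternatives, beside other filters, size factors, offsets and each library left out. The edgeR step was tested on simulated counts. Shared sequence was found with BLAST+ 2.17.0 (98% identity, 75 bases) against GENCODE transcripts of GRCm38, and promoter windows came from RefSeq (GRCm38.p6). No replicate pair agreed within sampling noise. Depth and intervals cover counting error only.

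Named genes were the 10 members, label-check markers, and from each list up to 4 genes a comparison with the largest change among those called with a mean TPM of at least 5, not all of which are printed, plus the 3 genes most like Dnmt3b, Uhrf1 and Tet1. Members and lists were chosen with earlier results of these data known.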

Additional observations from a re-analysis of the deposited data

How the results depend on the processing

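Between BV+SC+ cells and EpiSCs the 9 enzymes besides Dnmt3l kept direction and call in the 126 values tried, while Dnmt3l was not tested with at least 10 counts in every library. In the sorted cells 102 values were kept, 9 lost the call and 5 turned. Tet2 turned to -0.0493 with a GC offset and -0.0119 with block and GC offset, and ran from -0.40 to 0.82 over the replicates left out. Dnmt3b turned to -0.10 with limma on log2(TPM + 1), where 1 enzyme was higher in c-Kit+ cells in place of 3. In that comparison DESeq2 called 2484 genes against 4574, and 1708 against 2693 passed the fold rule with at least 10 counts in every library. The no-filter and GC settings moved the all-gene median between BV+SC+ cells and EpiSCs from 0.05 to 0.29 and -0.06. Past 2-fold with DOT1Li were 927 genes (714 higher, 213 lower), but 394 (302, 92; 0 enzymes higher) with 10 counts in both libraries, 4278 (2622, 1656) with no filter and 1958 (1245, 713) with TPM + 0.1, and 484 were lower with TPM + 1. Counts in place of TPM gave Dnmt3b 68.7%, 48.8% and 31.1% in c-Kit+, c-Kit- and BV+SC+ cells, Tet1 79.1% and 88.5% in c-Kit+ and BV+SC+ cells, Uhrf1 81.6%, 50.6% and 86.5% in c-Kit-, BV+SC+ and EpiSC libraries, and Uhrf1 to Dnmt1 ratios of 0.805, 0.399, 0.258 and 1.08 in c-Kit+, c-Kit-, BV+SC+ and EpiSC libraries. The causes were not tested. With the replicate number as a block, 4871 genes were called in the sorted cells (3 enzymes higher, 3 lower) and 5293 between BV+SC+ cells and EpiSCs (5 and 5, Dnmt3l among the higher). Same-numbered libraries deviated with r = 0.114 in the sorted cells and -0.0349 and 0.00367 in the other comparison, so the numbers were not taken as pairs. Tet2 had 9 to 21 counts and Dnmt3l 0 to 5 in the sorted libraries.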
